A study of Oryza sativa with 6 samples.

Results

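The known rice miRNAs of 20, 21 or 22 nt that belong to families with a number of 800 or above were analysed here, leaving out miR827, miR1425, miR1432, miR1861 and miR1862. The rule that chose them uses name and length alone, but it was set with earlier results of these data known. These miRNAs comprised 143 of the 1898 entries of the expression table. They held 116 distinct mature sequences of the 337 known ones, from 89 families. Each distinct sequence was counted once, by the entry with the most reads. Family numbers were given in order of discovery, so a high number mostly stands for a family found late and in few species. The label "less conserved" does not hold for every member, since miR2118 and miR2275 are known from many plants.

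Small RNAs were sequenced from PC, the susceptible indica line 9311, and from P15, an introgression line of 9311 that carries the brown planthopper (BPH) resistance gene BPH15. Plants were not infested (PC-0, P15-0) or carried BPH nymphs for 6 h (PC-6, P15-6) or 48 h (PC-48, P15-48). Each of the 6 libraries came from the pooled tissue of 30 plants, and there was 1 library per line and time, so no contrast of single libraries could be checked against replicates. The labels give leaf sheath of plants 3 weeks old, whereas the study's methods describe stems of younger seedlings. Other donor DNA that P15 may carry cannot be told apart from BPH15 in any comparison of the lines. The library totals behind the deposited TPM (read counts scaled to a library total) ranged from 1078716 to 1644065 reads, and 3 reads, the most that a count of 0 allows, stood for 1.82 to 2.78 TPM. All intervals are 95% intervals and cover counting error only.

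Plant miRNAs are cut from hairpin precursors by Dicer-like enzymes as a duplex of a 5p and a 3p strand. The strand of 21 nt that begins with U is typically loaded into AGO1 and guides the cleavage of matching mRNAs, whereas its partner is mostly degraded. miRNAs of 22 nt can in addition set off the production of secondary, phased small RNAs (phasiRNAs) from the transcript they cut. In grasses miR2118 and miR2275 are the triggers of the 21-nt and 24-nt phasiRNAs of developing panicles and anthers. Young families often have a single precursor, little mRNA targeting that is known, and low levels.

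The sequences that carried most of the reads are shown first, as deposited, in DNA letters (T for U), 5′ to 3′, with the seed (bases 2 to 8) in capitals.
miR5794: tGAGGAATcactagtagtcgt
miR820a: tCGGCCTCgtggatggaccag
miR2871a-3p: tATTTTAGtttctatggtcac
miR5144-5p: tTCTTGTGctgctgaagagac
These 4 sequences were 21 nt long and began with U, and with miR5072 they took 69.2% of all reads of the 116. miR5072 is shown with its last 3 bases in capitals, because it ended in CCA, as mature tRNAs do.
miR5072: cgattccccagcggagtcgCCA
CCA ended 4 of the 116 sequences and 11 of the 337 known ones, and whether these reads came from tRNA was not tested.

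miR820a, which silences the DNA methyltransferase gene OsDRM2 and lies within transposons, had 357, 448 and 349 reads in PC and 409, 470 and 359 reads in P15 at 0, 6 and 48 h. Its levels of 266 to 356 TPM made it the second of the 116, after miR5794 with 468 to 732 TPM. The identical entries miR820b and miR820c held the same reads. miR2871a-3p, whose copy miR2871b held nearly the same reads, stood at 264, 263 and 302 TPM in PC and 266, 172 and 264 TPM in P15, with the low value in P15-6, although P15-48 was lower still with clean reads as totals. miR5144-5p lay between 182 TPM (P15-6) and 240 TPM (PC-0). Its family is known to target the rice protein disulfide isomerase gene OsPDIL1;1, but no target is given here for the 5p strand. The 3p strand, miR5144-3p, had 33 reads over the 6 libraries. Next in order, miR5072 had 51.7 to 84.2 TPM and miR2118o 44.4 to 62.4 TPM.

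Most of the 116 were rare. Only 20 (17.2%) had at least 100 reads over the 6 libraries, and these 20 held 88.5% of the reads, whereas 44 (37.9%) had fewer than 10 reads and 20 had a single read. Among the 122 known 20- to 22-nt sequences with a family number under 800, 85 (69.7%) had at least 100 reads, and among the 72 sequences of 24 nt chosen by the same rule on family numbers, 28 (38.9%) did. The median was 16.0 reads for the 116, 36.0 for the 24-nt sequences and 453.0 for the families under 800. A read in every library was seen for 64 (55.2%), 44 (61.1%) and 106 (86.9%) sequences of the 3 sets. These are descriptions of sets that share their libraries, with no test.

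**Figure D1:**
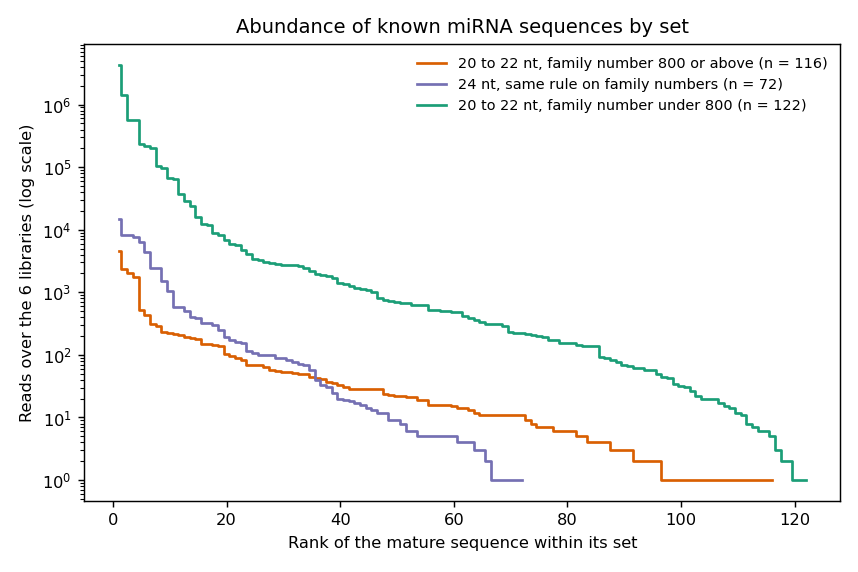
Reads over the 6 libraries (vertical axis, log scale) against the rank of each distinct mature sequence within its set (horizontal axis), as 1 line for each of the 3 sets. The 116 sequences of 20 to 22 nt with a high family number start at 4567 reads and end with 20 sequences of a single read.

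Of the 116 sequences, 69 were 21 nt, 36 were 22 nt and 11 were 20 nt long. U was the first base of 64 (55.2%), A of 23, C of 19 and G of 10. In the 21-nt class 43 of 69 began with U, and in the 22-nt class 15 of 36. The families under 800 had a first U in 65 of 122 (53.3%), and the 24-nt sequences had a first A in 38 of 72 (52.8%). Of the 89 families, 71 had 1 sequence here, and 17 sequences were shared by 44 entries. Just outside the length limits stood 5 sequences of 23 nt, led by miR1863b.2 with 388 reads, and miR5077 of 19 nt with 3 reads. The lowest family number among the 116 was 810, and the highest known one under 800 was 535.

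Together the 116 sequences took 0.197%, 0.212% and 0.224% of the library total in PC-0, PC-6 and PC-48, and 0.205%, 0.166% and 0.223% in P15-0, P15-6 and P15-48. P15-6 stood lowest, with an exact interval of 0.160 to 0.173% against 0.190 to 0.205% for the next library, PC-0. That place depended on the scaling. Of the clean reads that the study lists, the share was 0.0209% in both P15-6 and P15-0 and lowest, at 0.0175%, in P15-48. The median log2 fold change of P15-6/P15-0 over the 149 known sequences that had 20 or more reads in 1 library of the pair moved from -0.45 under the library totals to 0.04 under TMM, edgeR's scaling by trimmed means. For the 23 of the 116 among them it moved from -0.41 to 0.08. For P15-6/PC-6 it moved from -0.37 to -0.02 over 140 sequences. Scaling by clean reads moved that of P15-48/P15-0 from -0.06 to -0.44. Calls below are relative to the library totals, and those that another scaling ends are named.

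**Figure D2:**
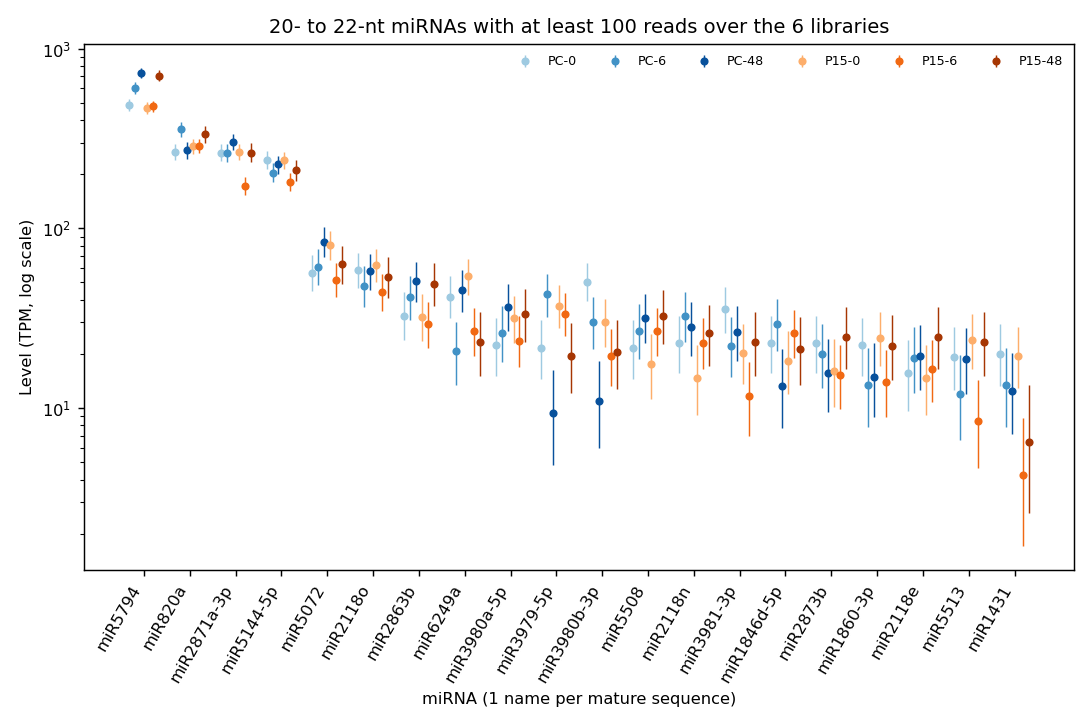
Level in TPM (vertical axis, log scale) of the 20 sequences with at least 100 reads, in order of their reads, with 1 point for each of the 6 libraries and bars for the 95% counting interval. miR5794, miR820a, miR2871a-3p and miR5144-5p stand at 172 to 732 TPM, and the other 16 below 100.

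Across the libraries, the highest level was 1.32 (miR5144-5p) to 4.72 times (miR1431) the lowest for these 20 sequences, with a median of 1.78, and 12 of the 20 varied less than 2-fold. P15-6 was the lowest library for 9 of them with the library totals, for 4 with TMM and for 2 with clean reads as totals. miR5794 had 654, 760 and 940 reads in the PC libraries and 668, 784 and 761 in those of P15, or 487, 604 and 732 TPM and 468, 477 and 705 TPM. Both 48 h libraries were above the other 4, and the ratio to 0 h was 1.51 (1.36 to 1.67) in PC and 1.51 (1.36 to 1.67) in P15, below the 2-fold limit used for calls. With clean reads as totals the ratios were 1.39 and 1.16, and P15-48 was below PC-6 and P15-6. Over both lines its 48 h difference was 0.72 (standard error 0.21) on the log2 scale in edgeR's quasi-likelihood fit, with an adjusted p of 0.126 that did not pass (0.113 to 0.689 over 11 alternatives). The values of miR2863b were 32.7, 41.3 and 50.7 TPM in PC and 32.3, 29.2 and 49.1 TPM in P15, with both 48 h libraries on top except with clean reads as totals, which put PC-6 above P15-48 (0.75, standard error 0.30, adjusted p = 0.236 in edgeR). miR5508 had 21.6, 27.0 and 31.9 TPM in PC and 17.5, 26.8 and 32.4 TPM in P15 (0.85, standard error 0.35, adjusted p = 0.236 in edgeR). No role is given here for miR5794, miR2863b or miR5508.

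Reads of both phasiRNA triggers were found in each of the 6 libraries. miR2118 comprised 13 entries and 8 sequences, of which 5 had more than 1 read, and these 5 are shown to compare their bases, with the seed in capitals.
miR2118o: cTCCTGATgcctcccaagccta
miR2118n: tTCCCGATgcctcccattccta
miR2118e: tTCCCAATgcctcccatgccta
miR2118q: tTCCCGATgcctcctattccta
miR2118f: tTCCTGATgcctcccattccta
Counted from the 5′ end of miR2118n (the same sequence as miR2118b), miR2118o differed by T1C, C5T, T17A and T18G, miR2118e by G6A and T18G, miR2118q by C15T and miR2118f by C5T. Thus miR2118o began with C and the other 4 with U. miR2118n shared its seed with miR2118q and the single-read miR2118p, and miR2118o with miR2118f and the single-read miR2118d. Members that differ by 1 base may share reads, since the number of mismatches allowed is not given in the sources used here.

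Summed over the 8 sequences, miR2118 had 140, 136 and 141 reads in the PC libraries and 144, 147 and 118 in those of P15, which is 104 (87.6 to 123), 108 (90.7 to 128) and 110 (92.5 to 130) TPM in PC and 101 (85.2 to 119), 89.4 (75.5 to 105) and 109 (90.5 to 131) TPM in P15. The intervals of all 6 libraries overlapped. miR2118o held 433 of the 826 reads, miR2118n 195 and miR2118e 145. miR2118n had 31, 41 and 36 reads in the PC libraries and 21, 38 and 28 in those of P15, and it was lower in P15 at 3 of 3 times, at 0.638 (0.349 to 1.15), 0.710 (0.444 to 1.13) and 0.925 (0.544 to 1.56) times PC, with each interval including 1. None of the 8 was called in any of the 7 pairwise comparisons with the library totals, whereas with TMM and with median-of-ratios miR2118n was called higher in P15-6/P15-0 (log2 fold change 1.14 and 1.18). miR2275 had 1 sequence of 22 nt, miR2275d, with 3, 2 and 3 reads in the PC libraries and 3, 2 and 1 in those of P15. Its level of 0.927 to 2.34 TPM is near the limit of 3 reads, and miR2275c, of 23 nt and outside the length rule, had 7 reads in all. The panicle trigger of 24-nt phasiRNAs was thus close to the detection limit in these seedlings, whereas miR2118 was not. For comparison, miR390-5p, which triggers the TAS3 small RNAs of leaves and meristems and is not among the 116, had 890, 589 and 607 TPM in PC and 959, 540 and 591 TPM in P15.

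**Figure D3:**
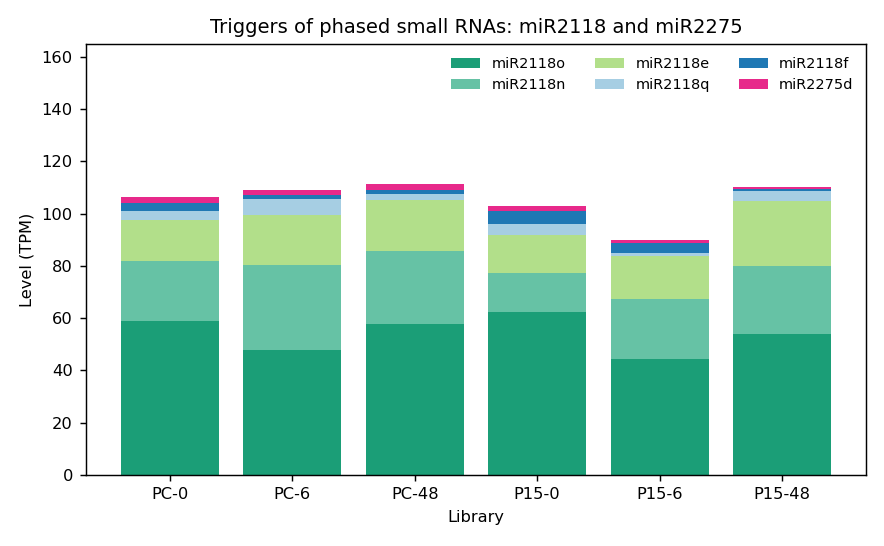
Level in TPM (vertical axis, from 0) of 5 miR2118 sequences and miR2275d in each of the 6 libraries, stacked in 1 bar per library. miR2118o makes up the lowest and largest block of each bar, and miR2275d, at 0.927 to 2.34 TPM, is the thin top.

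For 10 precursors both strands were among the 116, and the share of the 5p strand does not move with the scaling of a library. miR3980 is shown with both strands, since its minor strand in PC-0 was its major one in PC-48. The entries miR3980a and miR3980b share both sequences, and the seed is in capitals.
miR3980a-5p: aATCGACGgcctcagtcaggg
miR3980b-3p: cTGGCCGAggccgtcgattct
The strands form 17 Watson-Crick and 1 G-U pair with 2 unpaired bases at each 3′ end, the form that Dicer cutting leaves. The 5p strand had 30, 33 and 47 reads in the PC libraries and 45, 39 and 36 in those of P15, whereas the 3p strand had 68, 38 and 14 reads in the PC libraries and 43, 32 and 22 in those of P15. In PC the 5p share was 30.6% (exact interval 21.7 to 40.7) at 0 h, 46.5% (34.5 to 58.7) at 6 h and 77.0% (64.5 to 86.8) at 48 h. In P15 it was 51.1% (40.2 to 61.9), 54.9% (42.7 to 66.8) and 62.1% (48.4 to 74.5). The intervals of PC-0 and PC-48 lay far apart, and those of the 3 P15 libraries overlapped. The 3p strand was called lower in PC-48/PC-0, at 0.216 (0.112 to 0.387) times, which held under TMM, median-of-ratios, clean reads as totals and with a biological coefficient of variation of 0.2 in place of 0. Over both lines its 48 h difference in edgeR's fit was -1.23 (standard error 0.42) with an adjusted p of 0.21, and 0.0166 without PC-6, the lowest of 11 alternatives, which reached 0.812. Whether the lines differ in this change of strands could not be tested with 1 library each.

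**Figure D4:**
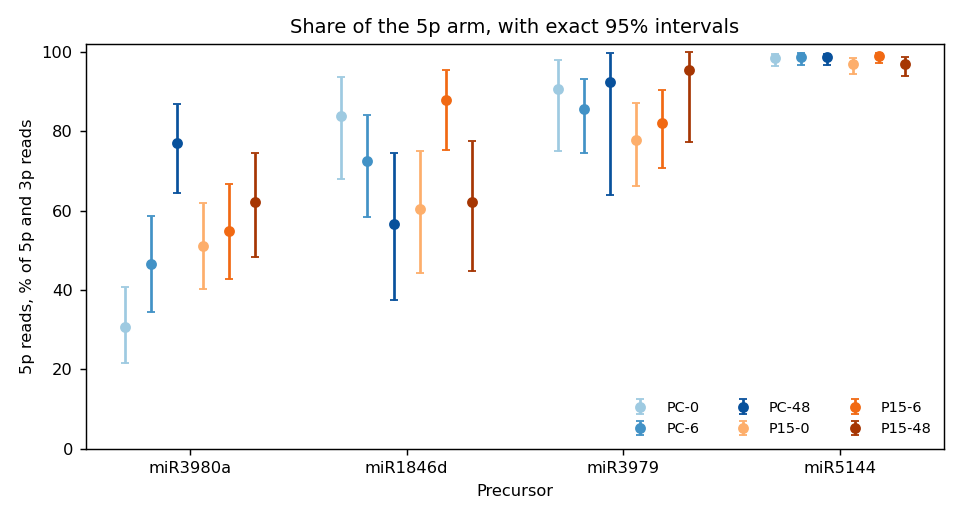
Share of the 5p strand in the reads of both strands (vertical axis, percent) for 4 precursors (horizontal axis), with 1 point for each of the 6 libraries and bars for the exact 95% interval. For miR3980a the share runs from 30.6% in PC-0 to 77.0% in PC-48, and for miR5144 it stays at 96.9% or more.

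miR5144 was nearly all 5p. Its 3p strand had 5, 3 and 4 reads in the PC libraries and 11, 3 and 7 in those of P15, and the 5p share was 96.9% to 99.0%. The 3p strand was called lower in P15-6/P15-0 with the library totals, but not under TMM, median-of-ratios, clean reads as totals or with the coefficient of variation of 0.2. miR1846d had a 5p share of 56.7% (PC-48) to 87.8% (P15-6). Its 3p strand had 6, 14 and 13 reads in the PC libraries and 17, 6 and 14 in those of P15, and was called higher in P15 at 0 h (2.67 times, 1.00 to 8.27) and lower at 6 h (0.328 times, 0.103 to 0.909). Both calls were lost with median-of-ratios and with the coefficient of variation of 0.2, and the 6 h call also with TMM and with clean reads as totals. The other pairs were mostly 3p for miR3982 (4.23% 5p over the 6 libraries), miR1860 (7.50%), miR1857 (20.6%) and miR1320 (23.2%), and mostly 5p for miR1429 (63.6%), miR2867 (79.2%) and miR3979 (84.5%).

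miR3979 is shown because both of its strands were lowest at 48 h in each line. No role is given for it here, and the seeds are again in capitals.
miR3979-5p: tCTCTCTCtcccttgaaggc
miR3979-3p: cTTCGGGGgaggagagaagc
miR3979-5p had 29, 54 and 12 reads in the PC libraries and 53, 55 and 21 in those of P15, and miR3979-3p had 3, 9 and 1 reads in the PC libraries and 15, 12 and 1 in those of P15. Thus each strand had its lowest count of the line at 48 h. The 5p strand was 0.433 (0.201 to 0.876) times its 0 h level in PC-48, which was called, and 0.524 (0.300 to 0.883) times in P15-48, just short of the 2-fold limit and called with clean reads as totals (log2 fold change -1.31). The 3p strand was called in P15-48/P15-0 (0.0881 times, 0.00209 to 0.573). Summed, the strands stood at 23.8, 50.1 and 10.1 TPM in PC and 47.7, 40.8 and 20.4 TPM in P15. In PC-6 the 5p strand was 1.99 (1.24 to 3.24) times its 0 h level, which was called with TMM and with median-of-ratios (log2 fold change 1.14 and 1.04). Over both lines its 48 h difference was -0.91 (standard error 0.40, adjusted p = 0.247 in edgeR), which did not pass.

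miR1320, which is known in rice to act on an ERF transcription factor in cold tolerance, had the largest called ratio of PC-48 to PC-0. The seed of its major strand is in capitals.
miR1320-3p: tGTAAAATtcattcgttccaa
It had 1, 4 and 18 reads in the PC libraries and 9, 3 and 18 in those of P15, so both 48 h libraries were above the other 4. The ratio to 0 h was 18.9 (2.98 to 785) in PC and 2.64 (1.13 to 6.68) in P15, and both were called. The P15 call was lost with clean reads as totals and with the coefficient of variation of 0.2. Its partner miR1320-5p had 0, 2 and 7 reads in the PC libraries and 2, 1 and 4 in those of P15. With the limit of 3 reads in place of 0, PC-48 was 2.44 times PC-0. The exact interval of that ratio, from 7 against 0 reads, began at 1.51. The 53 reads of miR1320-3p did not reach the filter of the fit over all 6 libraries. With no filter its 48 h difference was 2.22 in edgeR (adjusted p = 0.0878) and 2.42 in DESeq2 (adjusted p = 0.674), and neither passed. It was tested in 4 of the fits that leave out 1 library. It passed in edgeR without PC-6 (2.19, adjusted p = 0.00207) and without P15-0 (4.29, adjusted p = 0.00235), and not without PC-0 (1.27, adjusted p = 0.507) or without P15-6 (2.27, adjusted p = 0.146).

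Before BPH feeding, 3 of 99 tested sequences were called between the P15-0 and PC-0 libraries, against 16 of 309 (5.18%, with 4.21% higher and 0.971% lower) known sequences. Calls required a change of 2-fold or more in either direction together with an unadjusted P below 0.05 from edgeR's exact test with no spread between libraries, which compares a pair of libraries and not the conditions. The 3 were miR1846d-3p, miR1320-3p and miR3979-3p, all higher in P15-0 and all with fewer than 20 reads. miR1320-3p had 9 against 1 read (8.48 times, 1.18 to 372) and miR3979-3p 15 against 3 (4.71 times, 1.33 to 25.4). Among the abundant sequences, miR5794 and miR820a had 0.963 (0.863 to 1.07) and 1.08 (0.934 to 1.25) times their PC-0 level in P15-0. miR5072 stood at 1.43 (1.06 to 1.93) times, and miR3981-3p at 0.569 (0.346 to 0.921) times, and neither was called.

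At 6 h, miR1431, miR5083 and miR1846d-3p were called lower in P15-6 than in PC-6, 3 of 99 against 27 of 305 (8.85%, with 7.87% lower and 0.984% higher) known sequences. Under TMM, median-of-ratios and clean reads as totals miR5083 alone was still called. At 48 h miR5788 and miR2864.1 were called higher in P15 and miR6248 lower, 3 of 94 against 18 of 301 (5.98%, with 4.65% higher and 1.33% lower). miR5788 had 7, 8 and 8 reads in the PC libraries and 15, 14 and 17 in those of P15, so the 3 P15 libraries were above the 3 PC libraries, at 8.52 to 15.8 against 5.21 to 6.36 TPM. It had the smallest p of the 27 tested members for the line in edgeR's additive fit over the 6 libraries (difference 0.98, standard error 0.37), with an adjusted p of 0.305 (0.238 to 1 over 11 alternatives). A 21-nt entry matched to other plants, MIR5788-x, that differs from it in 2 bases had 228 reads against 69, with 48, 35 and 40 in the PC libraries and 42, 32 and 31 in those of P15. miR2864.1 had 4, 4 and 6 reads in the PC libraries and 7, 7 and 16 in those of P15. miR6248 had 11, 24 and 17 reads in the PC libraries and 13, 20 and 4 in those of P15, with the low value in P15-48 alone. The calls of miR5788 and miR2864.1 were lost with clean reads as totals, and those of miR5788 and miR6248 with the coefficient of variation of 0.2. All calls between the lines rested on fewer than 20 reads in the larger library.

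Across the 3 times, 27 of the 116 passed the filter on low counts, and none was called for the line, where 4 of 169 (2.37%) known sequences were. At an unadjusted p under 0.05 edgeR gave 1 of the 27 and 19 of the 169, and DESeq2 called 0 of the 116 (0 also unadjusted). Of the 20 sequences with at least 100 reads, 6 were lower in P15 at 3 of 3 times and 1 was higher, whereas of all 147 known sequences at that depth 27 (18.4%) were lower and 22 higher. These counts moved with the scaling. With TMM 4 were lower and 2 higher, beside 19 (12.9%) lower and 32 (21.8%) higher of the 147. With clean reads as totals 2 were lower and 3 higher, beside 21 (14.3%) lower and 35 (23.8%) higher of the 147. The 6 were miR5794, miR5144-5p, miR2863b, miR2118n, miR3981-3p and miR1431, of which miR2118n and miR3981-3p were lower at each time under all 4 scalings, and the 1 was miR1860-3p, which was higher under all 4. miR2873c was the only member with at least 10 reads in 1 line and none in the other, at 5, 5 and 1 reads in the PC libraries and 0, 0 and 0 in those of P15, where 0 reads allow up to 3. It was called in P15-6/PC-6 with the coefficient of variation of 0.2 and not otherwise.

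After BPH feeding, the sequences that were called lower at 6 h in P15 are described next. The 4 of them with the most reads are shown, with the seed in capitals.
miR6249a: cGTGAAGAgctcgccggcggc
miR1431: tTTGCGAGttggcccgcttgc
miR5083: aGACTACAattatctgatca
miR5513: tAACAAAGgacaacagactga
In P15-6/P15-0, 7 of 98 were called, all lower, against 41 of 308 (13.3%) known sequences, all lower too (0% higher). miR1431 had 27, 17 and 16 reads in the PC libraries and 28, 7 and 7 in those of P15, and was 0.217 (0.0800 to 0.508) times its 0 h level in P15-6 and 0.330 (0.122 to 0.774) times in P15-48. The 2 infested P15 libraries were the lowest of the 6. miR5083 had 24, 15 and 17 reads in the PC libraries and 25, 5 and 9 in those of P15, and was 0.173 (0.0519 to 0.461) times its 0 h level in P15-6. Both kept their 6 h calls under the 3 other scalings and with the coefficient of variation of 0.2, as did miR1850.3 with 11 and 1 reads. miR5513 had 34 reads in P15-0, 14 in P15-6 and 25 in P15-48, and 26, 15 and 24 in PC. Its call, like those of miR6249a, miR1846d-3p and miR5144-3p, was lost with TMM and with median-of-ratios, under which miR5508, miR2118n and miR1846d-5p were called higher instead.

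The number of all known sequences called at 6 h in both lines is not given here. Among the members, miR6249a, whose copy miR6249b held the same reads, was the 1 called lower at 6 h in both lines. It had 56, 26 and 58 reads in the PC libraries and 77, 44 and 25 in those of P15, at 0.496 (0.299 to 0.803) times its 0 h level in PC-6 and 0.496 (0.334 to 0.727) times in P15-6, so both values stood at the 2-fold limit. TMM put the log2 fold changes at -0.86 and -0.52 and ended both calls. At 48 h PC was at 45.2 TPM against 41.7 TPM at 0 h, whereas P15 stood at 23.2 TPM against 54.0 TPM (0.429 times, 0.262 to 0.682), which was called under the 3 other scalings too. P15-48 was not called against PC-48 except with clean reads as totals (log2 fold change -1.15). In PC-6/PC-0, 3 of 99 were called, miR6249a and miR2864.2 lower and miR6248 higher, against 12 of 304 (3.95%, with 0.658% higher and 3.29% lower) known sequences.

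**Figure D5:**
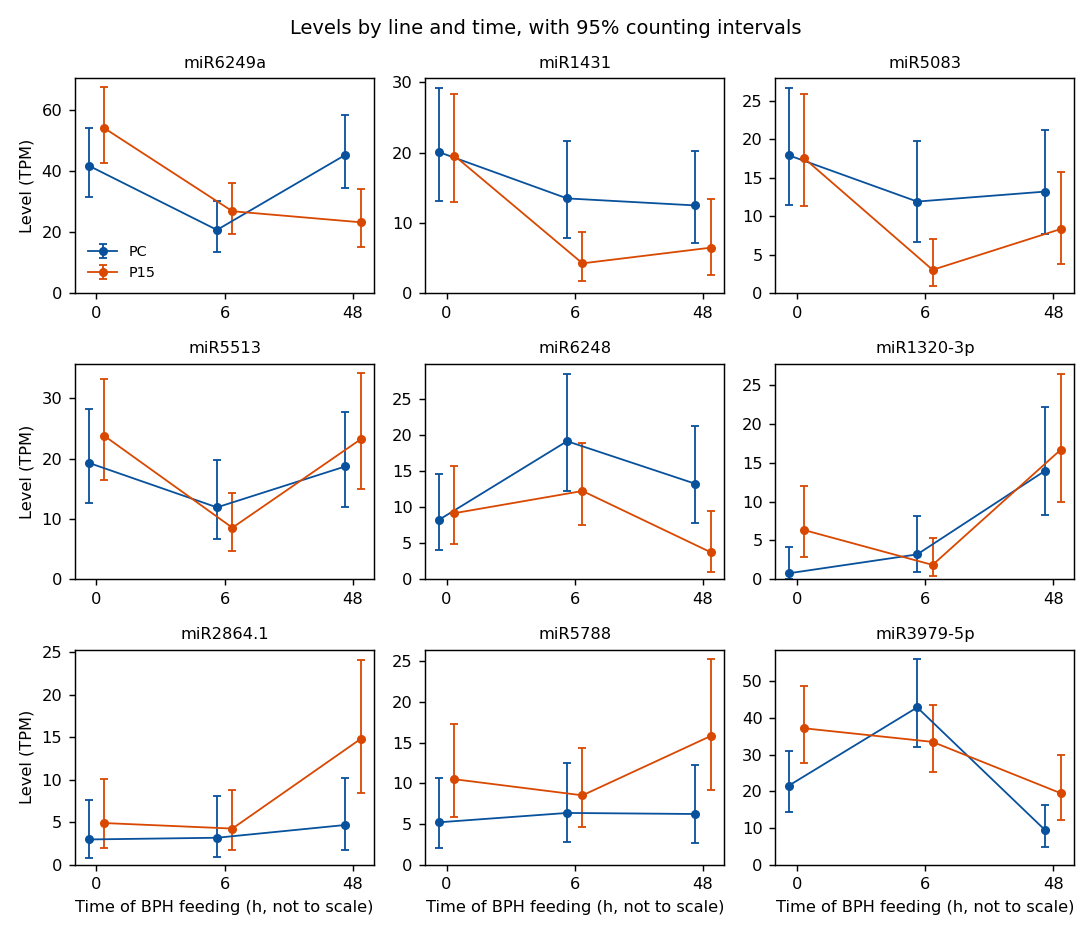
Level in TPM (vertical axes, from 0) of 9 sequences by time of feeding (horizontal axes, not to scale) in PC and P15, with bars for the 95% counting interval and 1 library per point. miR1431 and miR5083 are at 4.26 and 3.04 TPM in P15-6, and miR1320-3p at 14.0 and 16.7 TPM in the 48 h libraries.

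At 48 h, 6 of 99 were called in PC (2 higher, 4 lower) against 25 of 308 (8.12%, with 1.95% higher and 6.17% lower) known sequences. In P15 6 of 95 were called (3 higher, 3 lower) against 19 of 303 (6.27%, with 2.97% higher and 3.30% lower). In PC these were miR1320-3p and miR1320-5p (higher) and miR3980b-3p, miR3979-5p, miR1850.1 and miR1846e (lower). miR1850.1 had 13, 14 and 4 reads in the PC libraries and 26, 18 and 9 in those of P15, and miR1846e 13, 9 and 4 and 14, 11 and 5. Both were lowest at 48 h in each line, but their PC-48/PC-0 ratio of 0.322 had an interval of 0.0765 to 1.04, and both calls were lost with TMM. The call of miR3979-5p was lost with the coefficient of variation of 0.2. In P15 these were miR1320-3p, miR2864.1 and miR1429-3p (higher) and miR6249a, miR1431 and miR3979-3p (lower). miR1429-3p rested on 7 reads against 1 (9.25 times, 1.19 to 417). The calls of the 3 that were higher were lost with the coefficient of variation of 0.2. With clean reads as totals the P15 count was 10, all lower, and only miR6249a, miR1431 and miR3979-3p were shared. Under that scaling the median log2 fold change over 149 known sequences was -0.44 in place of -0.06. The share of all known sequences called under it is not given here. The PC and P15 comparisons share no library. miR1320-3p was the 1 member called in both at 48 h. How many of all known sequences were called in both is not given here, so this count cannot be weighed.

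In the additive fit, none of the 27 tested was called for 6 h or for 48 h, where 0 of 169 (0%) known sequences were called either. At an unadjusted p under 0.05 edgeR gave 4 of the 27 for 6 h (16 of the 169) and 6 for 48 h (33 of the 169), and DESeq2 called 0 at each time (0 and 3 of the 116 unadjusted). The 4 at 6 h were miR5083 (-1.12), miR2118n (0.83), miR1431 (-1.02) and miR6248 (1.07), as log2 differences, each with an adjusted p of 0.424 in edgeR. The 6 at 48 h were miR5794, miR3980b-3p, miR2863b, miR1850.1, miR5508 and miR3979-5p, with adjusted p from 0.126 to 0.247 in edgeR.

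Over the members tested, the median log2 fold change of P15 against PC at 0, 6 and 48 h was 0.02, -0.36 and -0.10, beside 0.01, -0.38 and 0.09 over all known sequences tested. At 6 and 48 h against 0 h it was 0.08 and 0.06 in PC, beside -0.04 and -0.08, and -0.64 and -0.18 in P15, beside -0.55 and -0.14.

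By list, miR820 and the 8 sequences of families 810 to 818 (141 reads in all) had no call in any of the 7 comparisons. Several of these families have precursors that overlap small transposons. Of all known sequences, 3.95% to 13.3% were called per comparison. None of the 8 had more reads than miR815b, with 35 over the 6 libraries. Calls did occur at such depth, as for miR5144-3p with 33 reads in all and miR1320-5p with 16. Of the 5 sequences from families with a target known in rice, miR820a, miR5144-5p, miR5144-3p, miR1320-3p and miR1320-5p, the calls were those of miR1320 and miR5144-3p given above. The families that the study names held 21 of the 116 sequences and 27 of the 31 calls, and since they were chosen on these libraries this is not independent evidence. In all, 19 sequences had the 31 calls, and 21 of the 31 rested on fewer than 20 reads in the larger library.

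The table also lists entries matched to miRNAs of other plants, and 31 of the 116 sequences had such an entry contained in them, shifted against them by a few bases or within 2 mismatches. For 7 of the 31 the other entry held more reads than the rice one. miR5827 had 5 reads against 316 of MIR5827-x, and miR5809 had 1 read against 59 of MIR5809-y, whereas miR5794 had 4567 against 315 of MIR5794-y and miR820a 2392 against 177 of MIR820-x. The study's methods compare with other plants those sequences that matched no known rice miRNA, and the number of mismatches allowed at either step is not given in the sources used here.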

How the data were processed

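Small RNA libraries were made from PC and P15 at 0, 6 and 48 h, and the authors matched reads of at least 18 nt to miRBase release 21 after removing other RNA classes with GenBank 209.0 and Rfam 11.0. They deposited the read count of each miRNA and library and the same count as TPM, in which a count of 0 stands as 0.01. The aligner used is not given in the sources used here. Per the labels, the submitters' processing notes name edgeR. The table held 0 columns of other samples.

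Library totals were computed back from counts and TPM. Identical mature sequences were taken once. In each of 7 comparisons edgeR 4.0.16 (R 4.3.3; exactTest, dispersion 0, prior count 0.125) was run on the counts of all known sequences, a test of counting error between 2 libraries. Time and line were fitted as additive terms over the 6 libraries by quasi-likelihood in edgeR (TMM, filterByExpr with the line as group, Benjamini-Hochberg adjustment over 169 sequences, threshold 0.05, 2 residual degrees of freedom), and with DESeq2 1.42.0 as an alternative. edgeR loads limma 3.58.1. Intervals are exact 95% intervals. Folds against 0 use 3 reads per library. Nothing in the labels shows replication within a condition. The exact test and the additive edgeR fit, the latter without TMM, were tried on simulated data. The DESeq2 fit was not. Python 3.11.15 served for tables and plots, with pandas 2.3.3, numpy 2.4.6, scipy 1.17.1 and matplotlib 3.10.9.

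The members, the lists (miR2118, miR2275, miR820, families 806 to 821, families with a target known in rice, families the study names) and the comparisons were chosen with earlier results of these data known. Named are the 15 most abundant sequences, the members called that had 20 or more reads in 1 library of the pair, the 5 with the smallest p for each term of the additive fit, the members of miR2118, miR2275 and miR820, those with at least 10 reads in 1 line and 0 in the other, families that the study names, and strand pairs with at least 50 reads in each library. Not all are printed, and others, such as miR1850.3 and miR5144-3p, were picked with their values in view.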

Additional observations from a re-analysis of the deposited data

How the results depend on the processing

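Of the 276 named ratios, 262 kept their direction where called and their side of the call under TMM, 262 under median-of-ratios and 261 under clean reads as totals, while 9, 10 and 9 lost and 5, 4 and 6 gained a call. No called value changed direction. The counts of called members given next moved by over 1.5 times. For P15-6/PC-6, TMM, median-of-ratios and clean reads each gave 1 in place of 3. For P15-48/P15-0, clean reads gave 10 in place of 6. The share over all known sequences under these scalings is not given here. A biological coefficient of variation of 0.2 gave 1 in place of 3 for P15-48/PC-48 and for PC-6/PC-0, and 3 in place of 6 for PC-48/PC-0 and for P15-48/P15-0. Keeping sequences that had 20 or more reads in 1 library of the pair ended 21 of the 31 calls. It left 0 of 22, 19 and 19 tested members called between the lines at 0, 6 and 48 h. It left 2 of 22 for PC-6/PC-0, 2 of 21 for PC-48/PC-0, 2 of 22 for P15-48/P15-0 and 4 of 23 for P15-6/P15-0. The share over all known sequences under this filter is not given here. Leaving out each library in turn gave 0 to 2 members for 48 h (miR3980b-3p and miR1320-3p without PC-6, and miR1320-3p without P15-0), and 0 for the line and for 6 h.

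For PC at 0, 6 and 48 h and then P15 at these times, the summed share was 0.295, 0.325, 0.327, 0.307, 0.254 and 0.334% with every entry, 0.0191, 0.0204, 0.0201, 0.0209, 0.0209 and 0.0175% of clean reads, and 0.174, 0.189, 0.201, 0.176, 0.149 and 0.198% over the 20 members with at least 100 reads. The additive fit compares the lines within each time, which is its only block, since each condition has 1 library and the labels give no replicate numbers. For all 3 scalings beside the library totals, chosen after seeing the data, the count of members with at least 100 reads lower in P15 at 3 of 3 times was 4 (TMM), 5 (median-of-ratios) and 2 (clean reads) in place of 6. Over all 147 known sequences at that depth it was 19, 20 and 21 in place of 27. Depth limits the 44 of the 116 that have fewer than 10 reads over the 6 libraries.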
